A study of Homo sapiens with 36 samples.

Results

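Autophagy encloses cytoplasm in a double membrane, the autophagosome, and delivers it to the lysosome for breakdown, and mitophagy is the form of it that removes mitochondria. The kinase ULK1 starts the process, WIPI proteins such as WIPI1 mark the growing membrane, and proteins of the ATG8 family, among them MAP1LC3B and GABARAPL1, are attached to that membrane. Cargo is brought in by receptors that bind ATG8 proteins: SQSTM1 (also called p62) and NBR1 for ubiquitin-tagged material, and BNIP3, BNIP3L and FUNDC1 in the outer mitochondrial membrane for mitochondria. PINK1 is a kinase that gathers on damaged mitochondria and labels them for removal. BNIP3 and BNIP3L are known targets of the hypoxia-inducible factors (HIF), and SQSTM1 is a known target of the stress factor NRF2.

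Messenger RNA of 10 such genes was followed, BNIP3, BNIP3L, FUNDC1, PINK1, SQSTM1, MAP1LC3B, GABARAPL1, WIPI1, ULK1 and NBR1. They were taken by gene symbol from the 60591 rows of the mRNA count table, each symbol gave a row, and all 10 passed the filter on low counts in both cell lines. Caco-2 and HT-29 are human colorectal cancer cell lines, and the Caco-2 cells had been kept under differentiating conditions for 21 days. In each line 3 groups were compared after 24 h: a control given 0.5 μl DMSO per ml of medium, cells given 300 μM cobalt chloride (CoCl2), and cells given 5 μM of the oxyquinoline derivative 4896-3212 (OD) in DMSO. The control is named as untreated in the sample annotation although the protocol gives it DMSO. The annotation gives no DMSO for the CoCl2 cells, while the methods of the study, written for Caco-2, add DMSO to the CoCl2 medium too and state a different amount. Each of the 6 groups had 3 replicates, so that 18 of the 36 libraries of the series were used. Both agents are used to activate HIF without low oxygen, and the comparisons ask how strongly they moved these genes. Because line and culture state changed together, they cannot be told apart in any comparison of Caco-2 with HT-29.

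Total counts ran from 12925719 to 22332639 per mRNA library. In Caco-2, replicate 1 stood apart with both agents: its chi-square per degree of freedom against the other replicates was 8.79 and 10.7 with CoCl2 and 9.51 and 12.6 with OD, where the others gave 3.42 and 3.43 against each other. In HT-29 the control replicate 3 did so less, with 6.10 and 5.00 against 1.99. Without the libraries numbered 1, 5 of the 10 genes for CoCl2 and 2 for OD were called in Caco-2, the same counts as with them. Without those numbered 3, 7 for CoCl2 and 5 for OD were called in HT-29, against 7 and 6 with them. Of 8 markers of intestinal epithelium, 7 or 8 were over 1 CPM (counts scaled to a common library total) in every group, and CDX1 had at most 2 counts in a Caco-2 library. The summed level of 6 enterocyte markers was between 2912 and 4508 CPM in Caco-2 libraries and between 15.4 and 33.4 CPM in HT-29 libraries. Most of the Caco-2 sum was APOA1, at a mean of 2545 CPM in control and 3721 CPM with CoCl2. APOA4 was also higher with CoCl2 there (13.1 to 61.2 CPM). The other listed markers were lower with it: SI (289 to 115 CPM), FABP1 (222 to 132), ALPI (22.8 to 16.5) and FABP2 (1.18 to 0.444). The sum of 7 markers of other tissues was 19.3 to 40.6 CPM in Caco-2 and 2.46 to 7.40 CPM in HT-29, almost all from COL1A1 and PECAM1, with PTPRC, the general leukocyte marker, at 0 to 2 counts. The part of these marker differences in the results below was not tested. CPM values were scaled within each line. In bulk RNA, fewer cells with a transcript and less of it per cell cannot be told apart.

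A change was called where the false discovery rate (FDR), the p-value adjusted over all genes tested by edgeR's quasi-likelihood test, was under 0.05 and the change was over 2-fold. "Rose" and "fell" are used for an FDR under 0.05 alone. CoCl2 raised 7 of the 10 genes in Caco-2, where 31.6% of all genes rose, and 9 in HT-29, where 40.7% rose. Of these, ULK1 in Caco-2 and BNIP3 and NBR1 in HT-29 turned sign when libraries were scaled by total count alone. NBR1 in HT-29 then passed the FDR as lower. OD raised 7 in Caco-2, against 25.7% of all genes, and 8 in HT-29, against 34.7%. With the fold limit added, 5 of the 10 Caco-2 values were called higher for CoCl2 (9.13% of all genes) and 2 for OD (4.43%). The same counts for HT-29 were 7 (17.4%) and 6 (9.5%). None of the 10 was called lower in these comparisons, by edgeR or by DESeq2, where 14.2%, 7.27%, 23.9% and 7.57% of all genes were, in the same order. FUNDC1 was the exception in direction: it fell with both agents in HT-29, where 42.2% of all genes fell with CoCl2 and 34% with OD. Within the Caco-2 fit, where 33.1% of all genes fell with CoCl2 and 24.7% with OD, 0 of the 10 passed the FDR as lower, by edgeR or by DESeq2. At an unadjusted p under 0.05, 2 of them (FUNDC1 and PINK1) were lower with CoCl2 there and 0 with OD. Over 10 alternative settings of the fit the CoCl2 values of these 2 stayed negative. Their lowest FDR among those settings was 0.00047 for FUNDC1 and 0.0014 for PINK1, so the absence of falls depended on the setting. FUNDC1 with OD reached 0.0364 as lower. The median log2 fold change of the 10 under CoCl2 came to 1.12 for Caco-2 and 1.67 for HT-29, where all genes had -0.03 in each. Under OD it came to 0.59 for Caco-2 and 1.01 for HT-29, where all genes had -0.02 and 0.01.

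**Figure D1:**
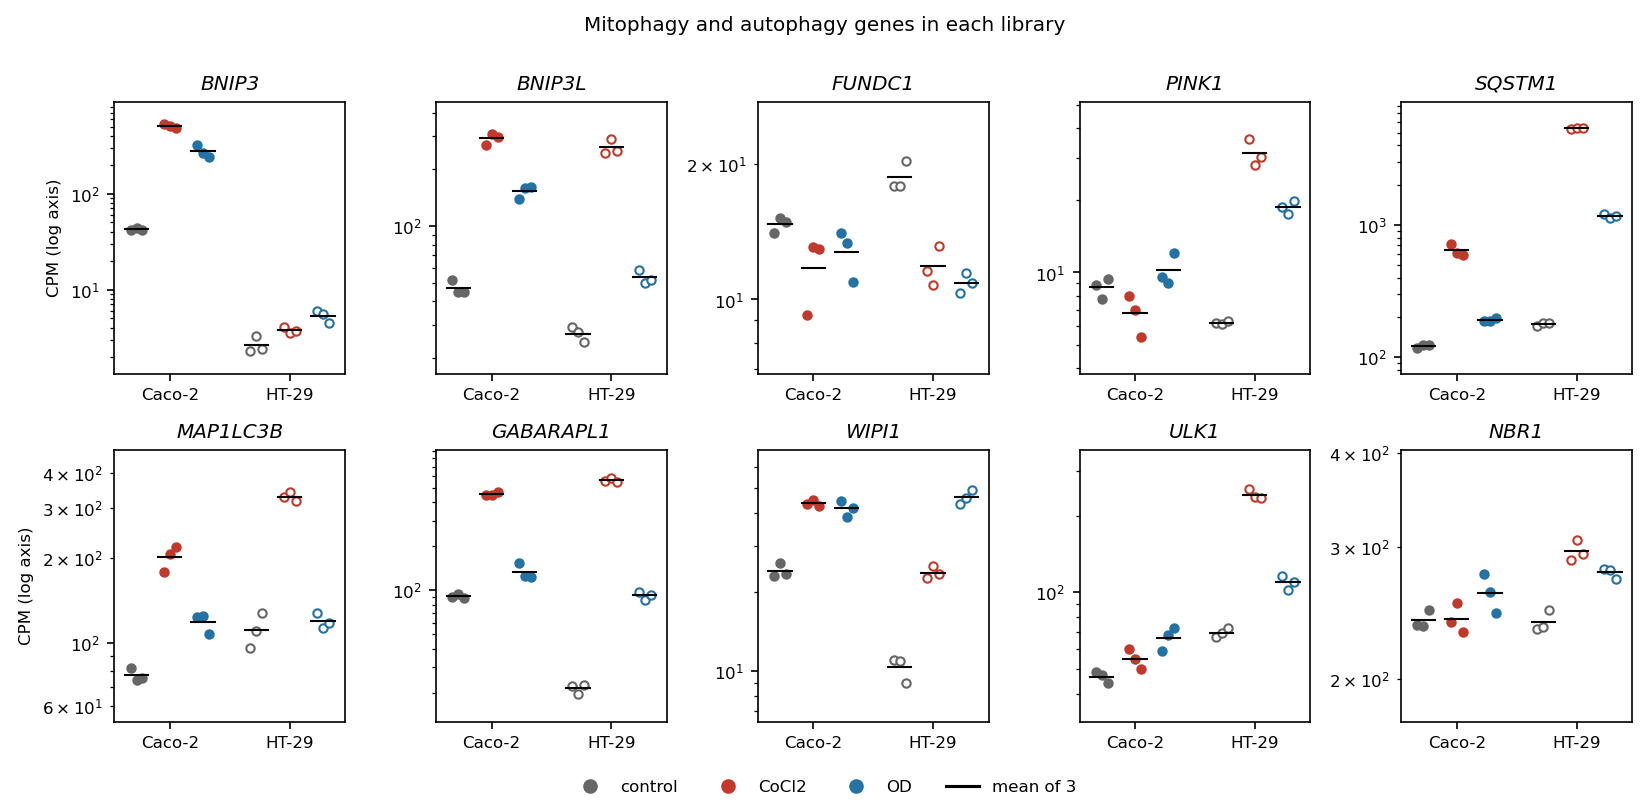
Level of each of the 10 genes in every library, in CPM on a log axis, with filled points for Caco-2, open points for HT-29, grey for control, red for CoCl2 and blue for OD, and a line at the mean of 3. BNIP3 lies between 241 and 525 CPM in treated Caco-2 libraries but stays at or under 6.0 CPM in every HT-29 library, and SQSTM1 reaches 5404 CPM in HT-29 with CoCl2.

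The stretch before the start of BNIP3 is shown because BNIP3 had the largest response of the 10 in Caco-2 and the densest run of HIF core letters. BNIP3 lies on the minus strand at chr10:131967684-131981967 (GRCh38), and 2 long noncoding RNA genes overlap it on the opposite strand. A window of 100 bases, from 180 to 81 bases before its RefSeq start, was taken from RefSeq (GRCh38.p14), whose start for BNIP3 is base 131981923, and covers chr10:131982004-131982103. No GENCODE exon falls in it. The core of the HIF binding site was searched as ACGTG or GCGTG on both strands, so that it appears as CACGT or CACGC when it lies on the other strand. MAP1LC3B had the second highest number of matches, and 30 bases around a pair of them are shown from chr16:87392186-87392215, on the plus strand, 150 to 121 bases before its RefSeq start at base 87392336. GENCODE starts MAP1LC3B further upstream, at base 87383953, so these bases lie inside the annotated gene. They overlap 1 GENCODE exon, whose gene and strand were not read. Capitals mark the matches, read 5′ to 3′ on the strand of the gene.
BNIP3: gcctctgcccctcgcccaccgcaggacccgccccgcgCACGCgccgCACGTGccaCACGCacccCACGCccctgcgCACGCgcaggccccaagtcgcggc
MAP1LC3B: tccgccccCACGCtGCGTGccgctgctggg

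The BNIP3 window holds 6 matches, 2 of which overlap in the letters CACGTG. In the 250 bases before the start, BNIP3 had 6 matches, MAP1LC3B had 4, and ULK1 and NBR1 had 1 each. FUNDC1, SQSTM1, GABARAPL1 and WIPI1 had 0 in the same window. Of 35116 human promoters of the same length, 43.2% held at least 1 match, 3.22% held 4 or more and 0.646% held 6 or more. The antioxidant response letters TGACNNNGC, associated with NRF2, matched 1 time in MAP1LC3B and in none of the other 7 windows, beside 10.9% of all promoters. The letters CACGTG matched in BNIP3 alone of the 8, beside 6.3% of all promoters. No promoter was read for BNIP3L or PINK1. A match describes letters only, and the absence of one says nothing about a factor.

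BNIP3 responded to CoCl2 more differently in the 2 lines than any other of the 10 genes. In Caco-2 its level was 41.3, 43.9 and 41.7 CPM in the control libraries, 525, 504 and 486 CPM with CoCl2, and 318, 266 and 241 CPM with OD. The 3 groups did not overlap, and every CoCl2 library lay above every OD library. The mean rose from 42.3 ± 1.40 to 505 ± 19.4 CPM with CoCl2 (SD, n = 3), a log2 fold change of 3.58 (SE 0.09, FDR 6.66e-20). With OD it rose to 275 ± 39.4 CPM, a log2 fold change of 2.7 (SE 0.09, FDR 2.17e-17). In HT-29 the same gene had 2.26, 3.28 and 2.40 CPM in control, 4.03, 3.53 and 3.70 CPM with CoCl2, and 6.0, 5.53 and 4.47 CPM with OD, from only 35 to 116 reads per library. All treated HT-29 libraries lay above all control libraries, and every one of them was far below the Caco-2 control. The log2 fold change with CoCl2 was 0.51 (SE 0.18, FDR 0.0137), and it was -0.12 when libraries were scaled by total count alone, a scaling that shifted the median of all genes by -0.63 there. With OD it was 1.01 (SE 0.16, FDR 4.00e-06), which sat at the 2-fold limit.

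A processed copy of BNIP3, BNIP3P1, was 98.1% identical to it over 581 bases. BNIP3P1 held 11 to 122 counts in Caco-2 libraries, from 1.36% to 2.26% of the BNIP3 count, and 0 or 1 count in HT-29. The other 38 BNIP3 pseudogene rows reached at most 18 counts in any library. How reads that fit both copies were counted is not given in the sources used here, so the BNIP3 level is uncertain to an extent that was not measured.

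BNIP3L, which encodes the related receptor NIX, responded in both lines. In Caco-2 it had 51.6, 44.6 and 45.1 CPM in control, 271, 308 and 298 CPM with CoCl2, and 140, 159 and 162 CPM with OD. In HT-29 it had 29, 27.3 and 24.4 CPM in control, 244, 291 and 250 CPM with CoCl2, and 58.7, 50.3 and 52.0 CPM with OD. In both lines the groups were fully separate, in the order control, OD, CoCl2. The log2 fold change with CoCl2 was 2.63 in Caco-2 (SE 0.09, FDR 3.78e-18) and 3.29 in HT-29 (SE 0.07, FDR 7.60e-24). With OD it was 1.71 in Caco-2 (SE 0.08, FDR 3.82e-14) and 1.01 in HT-29 (SE 0.08, FDR 7.93e-12), the second again at the 2-fold limit. Both OD values at the limit in HT-29, of BNIP3 and BNIP3L, fell under it with DESeq2 (0.99 and 0.98), so that 4 of the 10 were then called in place of 6. They fell under it also without the libraries numbered 1 (0.83 and 0.98), and BNIP3L without those numbered 3 (0.96). BNIP3 and BNIP3L transcripts aligned over 471 bases at 71.5% identity.

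FUNDC1, the other mitochondrial receptor, moved little and in the other direction. In HT-29 its level fell from 18.7 ± 1.40 CPM in control to 11.8 ± 1.21 CPM with CoCl2 and 10.9 ± 0.558 CPM with OD (SD, n = 3). The log2 fold changes were -0.67 (SE 0.09, FDR 3.27e-07) and -0.79 (SE 0.09, FDR 1.70e-08), and neither treated group overlapped the control. With total-count scaling the CoCl2 value was -1.30 and passed the 2-fold limit as lower. In Caco-2 the level was 14.7 ± 0.590 CPM in control, 11.8 ± 2.17 CPM with CoCl2 and 12.8 ± 1.63 CPM with OD. Neither difference passed the test (-0.31, FDR 0.0542, and -0.20, FDR 0.235). The CoCl2 libraries nevertheless all lay below the control libraries there, while the OD libraries overlapped them. Over 10 alternative settings the CoCl2 value in Caco-2 ran from -0.63 to -0.21.

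PINK1 rose with both agents in HT-29 and passed the test with neither in Caco-2. In HT-29 it had 6.13, 6.12 and 6.27 CPM in control, 35.8, 28.1 and 30.3 CPM with CoCl2, and 18.7, 17.5 and 19.8 CPM with OD. The 3 groups were well apart, and CoCl2 gave a log2 fold change of 2.34 (SE 0.10, FDR 6.57e-18). OD gave one of 1.59 (SE 0.10, FDR 1.91e-13). In Caco-2 it had 8.85, 7.78 and 9.42 CPM in control, 8.0, 6.98 and 5.41 CPM with CoCl2, and 9.55, 9.01 and 12.1 CPM with OD. There both treated groups overlapped the control, and the log2 differences of -0.37 (FDR 0.0534) and 0.23 (FDR 0.233) did not pass. An antisense gene, PINK1-AS, overlaps PINK1 at chr1:20633458-20651511 on the opposite strand. The library kit kept strand but the use of strand in counting was not given in the sources used here, so reads of the pair may be mixed.

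SQSTM1 had the largest response of the 10 in HT-29. Its level there was 171, 181 and 181 CPM in control, 5344, 5395 and 5404 CPM with CoCl2, and 1214, 1138 and 1169 CPM with OD. The mean rose from 178 ± 5.70 to 5381 ± 32.3 CPM with CoCl2 (SD, n = 3), which was 30.2-fold (log2 4.92, SE 0.05, FDR 3.91e-31). OD raised it 6.60-fold, to 1174 ± 38.0 CPM (log2 2.72, SE 0.04, FDR 1.54e-25). In Caco-2 the control libraries had 118, 124 and 122 CPM, the CoCl2 libraries 723, 612 and 593 CPM, and the OD libraries 186, 186 and 198 CPM. The order was the same as in HT-29 and no groups overlapped, with log2 fold changes of 2.40 (SE 0.08, FDR 6.93e-18) and 0.65 (SE 0.08, FDR 2.96e-07). SQSTM1 lies on the plus strand at chr5:179806398-179838078, overlapped on the opposite strand by MGAT4B and MRNIP.

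NBR1, the other ubiquitin receptor, hardly moved. Its 18 library values lay between 231 and 306 CPM. In HT-29 it rose from 238 ± 7.75 to 296 ± 9.21 CPM with CoCl2 and to 277 ± 4.74 CPM with OD (SD, n = 3; log2 0.31, FDR 5.64e-07, and 0.22, FDR 0.000124). With total-count scaling the CoCl2 value was -0.32, where the median of all genes shifted by -0.63. In Caco-2 the groups overlapped, at 239 ± 6.45, 240 ± 10.9 and 261 ± 15.8 CPM, and neither difference passed (FDR 0.949 and 0.159).

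Of the ATG8 genes, GABARAPL1 moved further than MAP1LC3B. GABARAPL1 in HT-29 had 22.1, 19.5 and 22.7 CPM in control, 561, 587 and 554 CPM with CoCl2, and 97.9, 85.9 and 93.2 CPM with OD. CoCl2 raised it 26.4-fold (log2 4.72, SE 0.06, FDR 3.03e-28) and OD 4.30-fold (log2 2.11, SE 0.06, FDR 3.50e-20). In Caco-2 it started higher, at 89.9, 94.4 and 89.3 CPM, and reached 449, 448 and 469 CPM with CoCl2 and 153, 126 and 123 CPM with OD. The log2 fold changes there were 2.32 (SE 0.08, FDR 1.94e-17) and 0.55 (SE 0.08, FDR 4.53e-06). With CoCl2 the libraries of both lines, scaled within each line, lay at 448 to 587 CPM, although their controls lay apart. GABARAPL3, which aligned to it over 356 bases at 95.5% identity, had 0 counts.

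MAP1LC3B, which encodes LC3B, rose with CoCl2 in both lines. Caco-2 went from 77.1 ± 4.01 to 201 ± 21.2 CPM (SD, n = 3; log2 1.38, SE 0.09, FDR 8.44e-13), and HT-29 from 112 ± 16.0 to 329 ± 12.1 CPM (log2 1.55, SE 0.07, FDR 1.99e-17). The HT-29 value fell to 0.92, under the 2-fold limit, with total-count scaling. OD raised it in Caco-2, to 119 ± 9.71 CPM (log2 0.62, FDR 1.74e-06). In HT-29 the OD libraries, at 113 to 128 CPM, overlapped the control libraries, at 96.4 to 128 CPM, and the log2 difference of 0.09 did not pass (FDR 0.240). The copy MAP1LC3B2, 97.8% identical over 741 bases, held 0.247% to 0.905% of the MAP1LC3B count.

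WIPI1, like BNIP3, was higher with OD than with CoCl2 in HT-29. It had 11, 10.9 and 9.01 CPM in control, 22.6, 25.2 and 23.5 CPM with CoCl2, and 43.3, 45.9 and 49.3 CPM with OD. Each OD library stood above each CoCl2 library, and the log2 fold changes were 2.18 for OD (SE 0.08, FDR 1.60e-18) and 1.23 for CoCl2 (SE 0.09, FDR 1.05e-12). The CoCl2 value was 0.60 with total-count scaling and 0.92 in limma on the deposited log2 values, under the limit in both. The deposited values have 1 added before the logarithm, which by itself shrinks changes of low genes such as WIPI1. In Caco-2 both agents gave nearly the same level, 43.8 ± 1.12 CPM with CoCl2 and 41.9 ± 2.98 CPM with OD, from 24.2 ± 1.5 CPM in control (SD, n = 3; log2 0.86 and 0.79, FDR 1.68e-08 and 1.34e-07).

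ULK1 rose in HT-29 from 69.4 ± 2.85 to 241 ± 11.1 CPM with CoCl2 (SD, n = 3; log2 1.80, SE 0.06, FDR 5.63e-21) and to 110 ± 6.92 CPM with OD (log2 0.66, SE 0.06, FDR 5.05e-11). In Caco-2 the control libraries lay at 44 to 48.7 CPM, the CoCl2 libraries at 50.0 to 59.8 CPM and the OD libraries at 58.6 to 72.2 CPM. Both rises there were under 2-fold, with a log2 value of 0.23 (SE 0.09, FDR 0.0340) for CoCl2 and one of 0.50 (SE 0.09, FDR 6.91e-05) for OD. The CoCl2 value was -0.09 with total-count scaling, where the median of all genes shifted by -0.32.

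**Figure D2:**
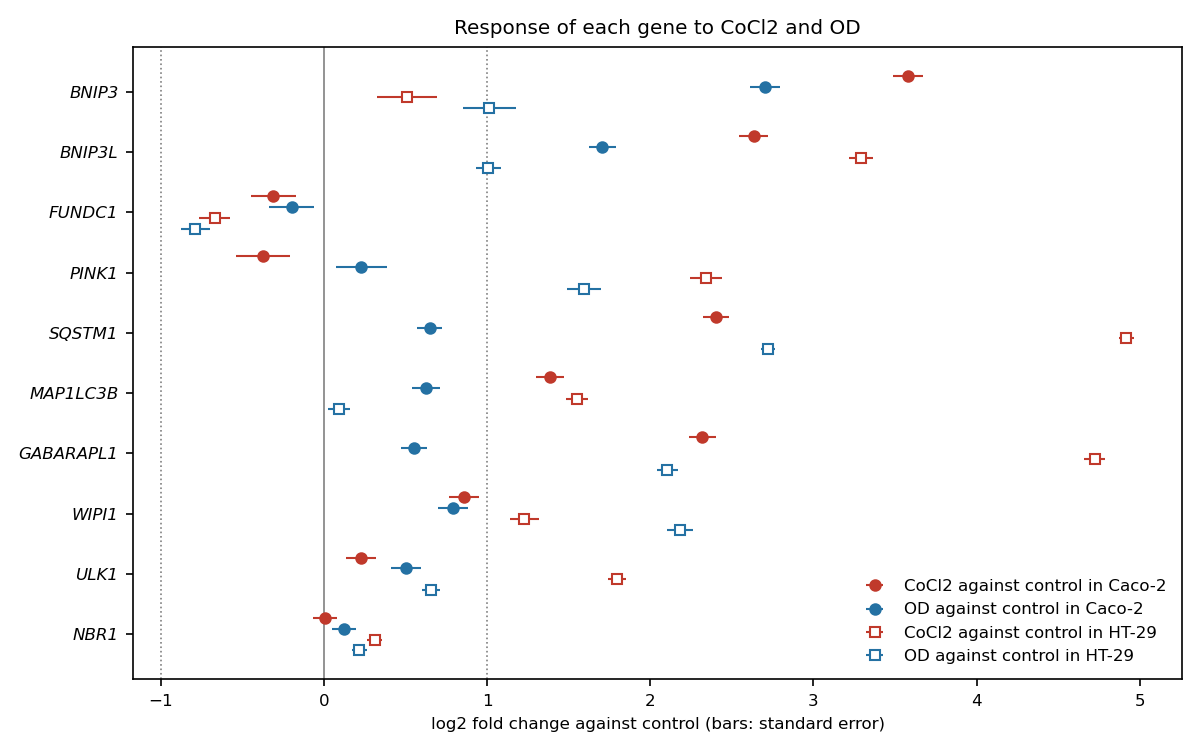
Log2 fold change against control for each gene, with standard errors, for CoCl2 (red) and OD (blue) in Caco-2 (filled circles) and HT-29 (open squares); dotted lines mark 2-fold. The widest gap between lines is BNIP3 with CoCl2, at 3.58 in Caco-2 against 0.51 in HT-29, and SQSTM1 (4.92) and GABARAPL1 (4.72) with CoCl2 in HT-29 lie furthest right.

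The agents were also compared with each other within a line, at the doses used, which differ. In Caco-2, SQSTM1 (log2 1.76, SE 0.08, FDR 1.52e-14) and GABARAPL1 (log2 1.77, SE 0.08, FDR 1.92e-14) were called higher with CoCl2 than with OD, beside 5.21% of all genes. BNIP3 (0.88), BNIP3L (0.93) and MAP1LC3B (0.76) were also higher with CoCl2, under 2-fold. PINK1 (-0.60, FDR 0.00377) and ULK1 (-0.27, FDR 0.0147) were higher with OD, and FUNDC1, WIPI1 and NBR1 did not pass. The 95% interval of the WIPI1 difference ran from -0.11 to 0.24 on the log2 scale. None of the 10 was called lower with CoCl2 than with OD in Caco-2, beside 6.44% of all genes.

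In HT-29, 5 of the 10 were called higher with CoCl2 than with OD, beside 10.8% of all genes. These were GABARAPL1 (log2 2.62, SE 0.06), BNIP3L (2.29, SE 0.07), SQSTM1 (2.20, SE 0.04), MAP1LC3B (1.46, SE 0.07) and ULK1 (1.14, SE 0.05), all with an FDR of 1.45e-16 or less. PINK1 was higher by 0.75 (FDR 8.46e-09). WIPI1 (-0.96, FDR 5.80e-12) and BNIP3 (-0.51, FDR 0.00709) were higher with OD, and 0 of the 10 passed the 2-fold limit as lower with CoCl2, beside 19.2% of all genes. FUNDC1 (0.12, FDR 0.298) and NBR1 (0.09, FDR 0.0603) did not pass. The WIPI1 difference was near the limit and ran from -1.45 to -0.90 over 10 alternative settings. It passed the limit under total-count scaling (-1.45) and without the libraries numbered 2 (-1.01). The limit was passed too with no filter on low counts and in 1 fit of all libraries. BNIP3 reached -1.0 under total-count scaling. MAP1LC3B (0.96) and ULK1 (0.64) fell under the limit with that scaling.

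Whether a response differed between the lines was tested as an interaction over all 18 libraries, where a positive value is a larger response in HT-29. For CoCl2, 5 of the 10 were called, beside 21.6% of all genes in either direction. BNIP3 responded less in HT-29 (-3.18, SE 0.21, FDR 2.09e-14). PINK1 (2.62, SE 0.19), SQSTM1 (2.41, SE 0.09), GABARAPL1 (2.30, SE 0.11) and ULK1 (1.46, SE 0.11) responded more in HT-29, with FDR values of 3.12e-13 or less. For BNIP3L the difference was 0.55 (SE 0.12, FDR 0.000171), and for MAP1LC3B it was 0.06 with a 95% interval from -0.17 to 0.30. FUNDC1 (-0.47, FDR 0.0211) and NBR1 (0.20, FDR 0.0497) passed the FDR alone, and WIPI1 (0.26, FDR 0.0896) did not. For OD, 5 of the 10 were called, beside 15.2% of all genes: BNIP3 (-1.71, SE 0.19, FDR 6.88e-09), and in the other direction SQSTM1 (2.06, SE 0.09), GABARAPL1 (1.54, SE 0.11), WIPI1 (1.37, SE 0.12) and PINK1 (1.35, SE 0.19), with FDR values of 3.54e-07 or less. BNIP3L (-0.72, FDR 7.60e-06), FUNDC1 (-0.61, FDR 0.00311) and MAP1LC3B (-0.55, FDR 0.000364) responded to OD less positively in HT-29 as well. ULK1 (0.14, FDR 0.321) and NBR1 (0.08, FDR 0.487) did not pass. The BNIP3 and BNIP3L responses thus ran apart for CoCl2, where the BNIP3 interaction was negative and the BNIP3L interaction positive.

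The control cells of the lines already differed in 3 of the 10 genes at the call limits, where 45.8% of all genes were called in either direction. BNIP3 was at 2.77 ± 0.579 CPM in control HT-29 and 41.5 ± 1.32 CPM in control Caco-2 on a common scaling (SD, n = 3), a log2 difference of -3.91 (SE 0.13, FDR 1.61e-24). GABARAPL1 was lower in HT-29 by a log2 difference of -2.0 (SE 0.08, FDR 1.57e-21) and WIPI1 by -1.16 (SE 0.09, FDR 3.13e-13). BNIP3L (-0.73) and PINK1 (-0.40) were lower and FUNDC1 (0.44), SQSTM1 (0.64), MAP1LC3B (0.63) and ULK1 (0.66) higher in HT-29, all under 2-fold with FDR values of 0.0112 or less. NBR1 did not differ past the test (0.08, 95% interval -0.03 to 0.20).

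Levels of different genes were set side by side per length, as RPKM (reads per length of transcript and library size) from the table the authors deposited. In control Caco-2 the order was NBR1 (29.1 RPKM), GABARAPL1 (23.0), SQSTM1 (16.4), MAP1LC3B (15.6), FUNDC1 (11.9), BNIP3L (11.6), BNIP3 (8.10), WIPI1 (7.25), ULK1 (6.25) and PINK1 (1.83). The libraries of SQSTM1 and MAP1LC3B overlapped, as did those of FUNDC1 and BNIP3L. With CoCl2, GABARAPL1 (112 RPKM) led, followed by BNIP3 (94.3) and SQSTM1 (84.7), which overlapped, and with OD BNIP3 led at 51.4 RPKM. In control HT-29, NBR1 (29.2 RPKM) was first again and BNIP3 (0.513) last, with SQSTM1 (24.3) and MAP1LC3B (22.9) overlapping behind it. With CoCl2 in HT-29, SQSTM1 stood at 691 RPKM, GABARAPL1 at 135 RPKM, and MAP1LC3B (63.2) and BNIP3L (61.0) overlapped behind them, while BNIP3 stayed last at 0.682 RPKM. BNIP3 was also last with OD, at 1.02 RPKM, where SQSTM1 led at 158 RPKM.

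**Figure D3:**
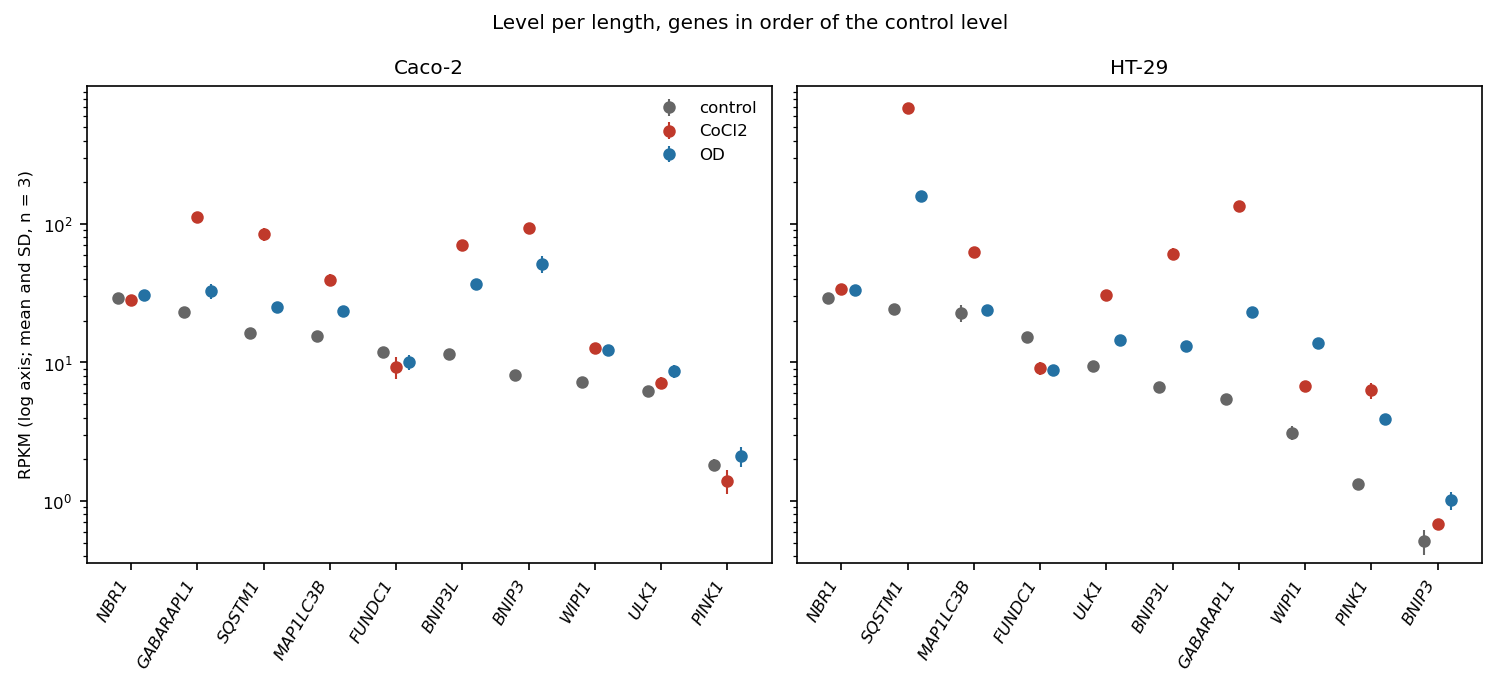
RPKM of the 10 genes on a log axis in Caco-2 (left) and HT-29 (right), as mean and SD of 3 libraries, genes ordered by their control level; grey is control, red CoCl2 and blue OD. NBR1 leads in both controls at 29.1 and 29.2 RPKM, and BNIP3 is last in HT-29 in all 3 groups.

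Beyond the 10 genes, 82 others of the pathway in 9 lists were read from the same fit, and the test covered 78 of them for Caco-2 and 80 for HT-29. In Caco-2, 10 were called higher and 2 lower with CoCl2, and 3 higher and 2 lower with OD, of 78, beside 9.13%, 14.2%, 4.43% and 7.27% of all genes. In HT-29, 35 were called higher and 7 lower with CoCl2, and 11 higher and 0 lower with OD, of 80, beside 17.4%, 23.9%, 9.5% and 7.57%. DESeq2 also called 0 lower with OD in HT-29, and at edgeR's FDR alone 12 of the 80 fell there, beside 34% of all genes. Under CoCl2 they had a median log2 fold change of 0.23 (Caco-2) and 0.94 (HT-29), and under OD of 0.12 and 0.36.

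With CoCl2 in HT-29, where 17.4% of all genes were called higher and 23.9% lower, 9 of 14 tested genes of the lysosome and its regulator TFEB were called higher and 0 lower, 6 of 9 of membrane supply and WIPI proteins higher, and 5 of 8 of the PI3K complex higher. Of the other lists there, 4 of 9 other cargo receptors, 3 of 7 fusion genes, 2 of 4 other ATG8 genes and 1 of 4 genes of the initiation complex were called higher. The lists with calls in both directions were ATG8 conjugation, with 2 higher and 2 lower of 10, other mitophagy genes, with 3 higher and 4 lower of 15, and the initiation complex, with 1 lower of 4. With OD in HT-29, where 9.5% of all genes were called higher, the calls were 5 of 14 in the lysosome list, 3 of 9 in membrane supply, and 1 each in ATG8 conjugation, other ATG8 genes and other cargo receptors. In Caco-2 no list had more than 4 called higher, the lysosome list with CoCl2, of 15. The background share of all Caco-2 genes past both limits in that direction was 9.13% for CoCl2 and 4.43% for OD.

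GLA, a lysosomal galactosidase, rose with CoCl2 from 26.6 ± 1.46 to 496 ± 12.5 CPM in HT-29 (SD, n = 3; log2 4.22, FDR 6.49e-28) and from 26.9 ± 1.85 to 140 ± 2.44 CPM in Caco-2 (log2 2.38, FDR 1.55e-17). ATG9B, a membrane protein of the early autophagosome pathway, rose from 1.45 ± 0.0928 to 21.6 ± 1.93 CPM in HT-29 (log2 3.90, FDR 1.21e-19) and in Caco-2 from 3 to 9 counts per control library to 39 to 63 (log2 3.00, FDR 9.32e-08). With OD, ATG9B gave log2 values of 2.88 in HT-29 (FDR 2.11e-15) and 1.15 in Caco-2 (FDR 0.0285). NPC1, a cholesterol exporter of the lysosome, was called higher in all 4 comparisons, by 1.61 (CoCl2) and 1.17 (OD) on the log2 scale in Caco-2, and by 2.83 and 2.06 respectively in HT-29. OPTN, a mitophagy receptor, was called higher in all 4 as well, by 1.60 in CoCl2-treated and 1.51 in OD-treated Caco-2 cells, and by 1.33 and 1.85 in turn in HT-29. CTSL, a lysosomal protease, rose with CoCl2 from 3.96 ± 0.704 to 57.1 ± 1.67 CPM in HT-29 (log2 3.82, FDR 1.14e-22) and with OD to 16.9 ± 1.97 CPM (log2 2.07, FDR 5.53e-15). In Caco-2 CTSL fell, by 0.26 with CoCl2 (FDR 0.0067) and by 0.59 with OD (FDR 1.16e-06) on the log2 scale.

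Among those called lower, ULK2, a relative of ULK1, fell with CoCl2 by 1.64 in Caco-2 (FDR 9.39e-08) and by 2.82 in HT-29 (FDR 2.61e-07) on the log2 scale, the second from 22 to 41 counts per control library to 2 to 4. NIPSNAP1, a mitochondrial protein that can mark damaged mitochondria, fell by 1.15 in Caco-2 treated with CoCl2 and by 1.31 in Caco-2 treated with OD. ATG4C, a protease that processes ATG8 proteins, fell by 1.02 with OD in Caco-2 (FDR 0.00017) and by 1.93 with CoCl2 in HT-29 (FDR 9.50e-11). SPATA18, which acts in mitochondrial quality control, fell with CoCl2 in HT-29 by 2.47 (FDR 0.00157), from 8 to 10 counts to 0 to 2. GABARAP had 1 to 11 counts in each library, and a read-through gene on the same strand overlaps it, so its level here is uncertain.

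**Figure D4:**
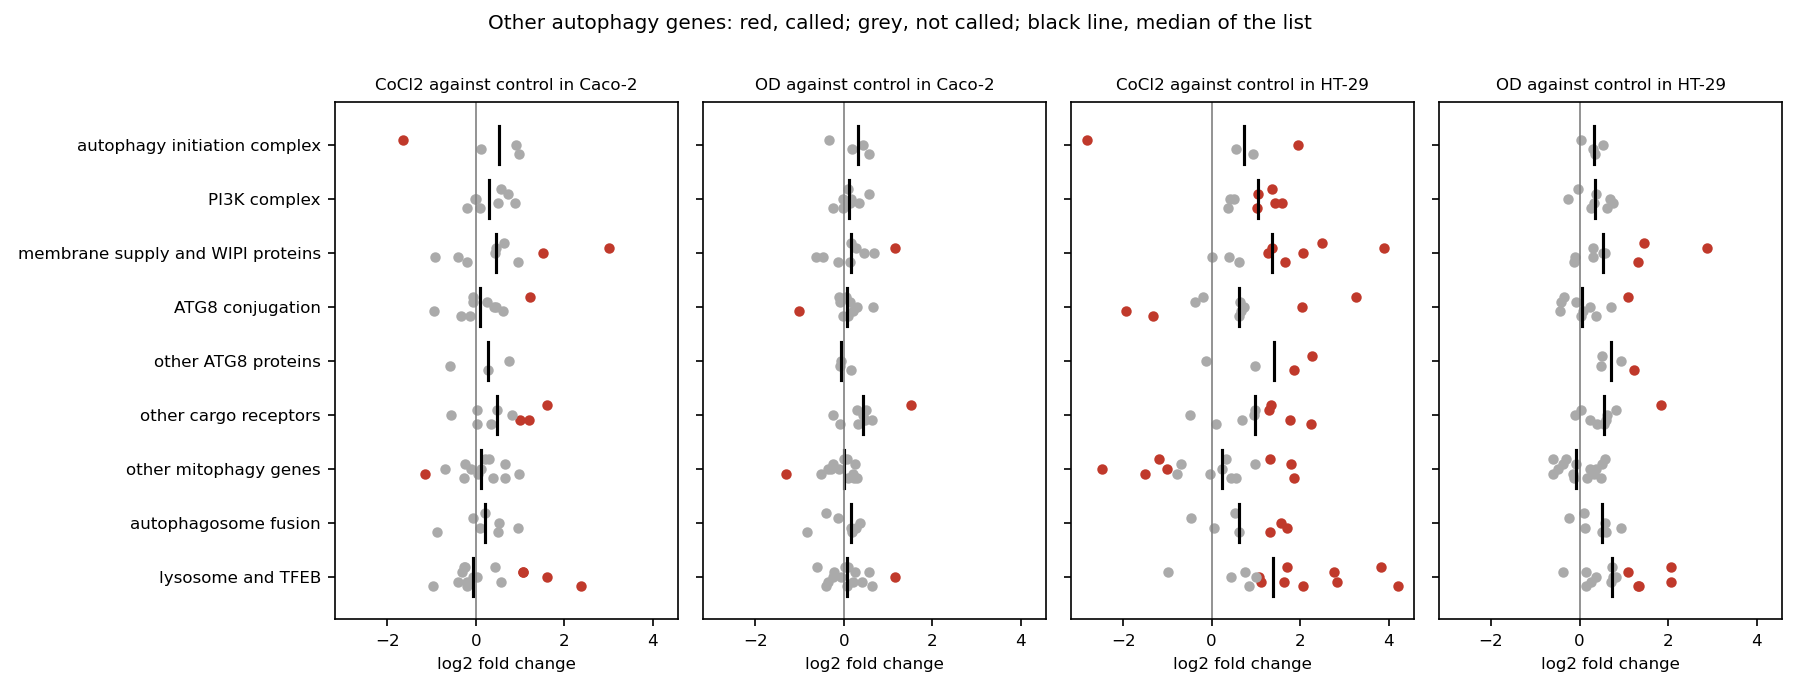
Log2 fold change against control of the other autophagy genes tested, 1 point per gene and 1 row per list, for CoCl2 and OD in each line; red points passed the FDR and 2-fold limits, and the black bar is the median of the list. Most red points lie in the HT-29 CoCl2 panel, where 35 genes are higher and 7 lower, against 10 and 2 in the Caco-2 CoCl2 panel.

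The genes whose pattern over the 18 libraries was most like that of BNIP3, of 13942 compared, were LRCH1 (Pearson r 0.990), TMSB10 (0.986) and TMEM92 (0.985). For SQSTM1 they were DNAJB2 (0.995), TKT (0.994) and XAB2 (0.993). These values describe 18 libraries in 6 groups that share line and treatment, so they mostly compare group means. They take no account of the size of a change. With CoCl2 in Caco-2, LRCH1, TMSB10 and TMEM92 differed from control by 1.11, 1.62 and 1.88 on the log2 scale, against 3.58 for BNIP3. With CoCl2 in HT-29, DNAJB2, TKT and XAB2 differed by 1.94, 2.33 and 1.76, against 4.92 for SQSTM1.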

How the data were processed

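The authors deposited raw mRNA read counts per gene and log2 values, read here as log2(RPKM + 1). Within each line the ratio of CPM to RPKM was compared after each library was aligned by its median ratio. For each gene the ratio was then constant within 1% (100% of 10374 Caco-2 and 10376 HT-29 genes checked). The alignment removes any scaling of a whole library, so the scaling of totals behind the deposited values was not checked. Genes that failed the authors' filter in a line are listed at 0 there. Per the study's methods and the submitters' processing notes, single-end reads were trimmed with cutadapt 2.10 and aligned with STAR 2.7.5b to GRCh38.p13, and genes were counted on GENCODE 34. The counting tool and its use of strand are not given in the sources used here. The study's paper covers Caco-2 and does not describe HT-29.

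The edgeR 4.0.16 quasi-likelihood F test (R 4.3.3, two-sided, TMM, filterByExpr) was fitted on the counts of 9 libraries per line, on 16034 genes in Caco-2 and 15812 in HT-29. Line comparisons used all 18 libraries (17921 genes). The FDR is the Benjamini-Hochberg adjusted p over the genes tested. The standard error is the absolute log2 fold change divided by the square root of F. CPM values use TMM-scaled totals within a line. DESeq2 1.42.0, the tool of the study, and limma 3.58.1 were alternatives. The tests were run on simulated counts with known changes, drawn with the spread that edgeR had fitted. That checks the code only and cannot show that the p-values hold for these libraries. Replicates differed beyond counting error in all groups (chi-square per degree of freedom 1.96 to 12.6), and no 2 replicates of the same group agreed within sampling noise. The design names biological replicates without saying which cultures they came from, so p-values measure the spread between these samples, which may be technical.

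All 10 genes are named in every comparison, and of the other 82 pathway genes the 3 highest and 3 lowest among those called, plus GABARAP, chosen after their values were seen. The genes and lists were chosen with earlier results of these data known. Coordinates and overlaps are from GENCODE 44 on GRCh38, promoters from RefSeq (8 of 10 genes matched), and copies were aligned with blastn 2.17.0. The miRNA libraries were not used here.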

Additional observations from a re-analysis of the deposited data

Results flagged for a closer look

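The responses of 6 genes differed between the lines by a test of the difference itself, the interaction over 18 libraries in edgeR's quasi-likelihood fit, at an FDR under 0.05 and over 2-fold. At these limits 21.6% of all genes were called in either direction for CoCl2 and 15.2% for OD. Line and culture state cannot be told apart in these values, which are log2 differences of the HT-29 response less the Caco-2 response.

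BNIP3 responded less in HT-29, by -3.18 for CoCl2 and -1.71 for OD, and its HT-29 values rest on 35 to 116 reads per library. PINK1 responded more in HT-29, by 2.62 for CoCl2 and 1.35 for OD. SQSTM1 did so by 2.41 and 2.06, and GABARAPL1 by 2.30 and 1.54. WIPI1 differed for OD, by 1.37, and ULK1 for CoCl2, by 1.46. Groups of 3 were not tested for outlying samples here.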

How the results depend on the processing

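Of 840 values of single genes under 10 alternative settings, 797 kept their direction and their side of the limits, 19 dropped below the limits, 6 passed them and 18 changed sign. Whether a value passed the FDR alone was not followed in these counts. Scaling by total count alone shifted the median of all genes by -0.32 (CoCl2) and -0.15 (OD) in Caco-2 and by -0.63 and -0.14 in HT-29, on the log2 scale, and by -0.50 for CoCl2 against OD in HT-29. With it the sign turned for ULK1 (-0.094) and NBR1 (-0.31) with CoCl2 and NBR1 (-0.033) with OD in Caco-2, BNIP3 (-0.12) and NBR1 (-0.32) with CoCl2 and MAP1LC3B (-0.044) with OD in HT-29, WIPI1 (-0.10) for CoCl2 against OD in Caco-2, FUNDC1 (-0.38) and NBR1 (-0.40) for CoCl2 against OD in HT-29, and MAP1LC3B (-0.14) and NBR1 (-0.0067) in the CoCl2 interaction. With limma on the log2 values NBR1 with CoCl2 in Caco-2 was -0.032. Leaving out each replicate number in turn turned the sign of 6 small values, which ranged from -0.040 to 0.059 (NBR1, CoCl2 in Caco-2), -0.062 to 0.22 (MAP1LC3B, OD in HT-29), -0.29 to 0.10 (FUNDC1, CoCl2 against OD in Caco-2), -0.00944 to 0.12 (WIPI1, the same), -0.18 to 0.29 (MAP1LC3B, CoCl2 interaction) and -0.062 to 0.28 (ULK1, OD interaction).

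The OD calls in HT-29 were 6 of the 10 genes, 4 with DESeq2, RLE scaling, total-count scaling, limma or 1 fit of all libraries, and 4 to 6 over the leave-outs (4 without replicate 1, 5 without replicate 3). With the replicate number as a block they were 5. Same-numbered libraries did not deviate together (correlations -0.112 to 0.120 in Caco-2 and -0.0569 to 0.0370 in HT-29), so the numbers were not read as pairs. The block changed no other count of the 10 genes. Limma gave 7 in place of 12 other autophagy genes for CoCl2 and 3 in place of 5 for OD in Caco-2, on fewer genes. The 1 added before the logarithm in the values that limma used shrinks changes of low genes, among them BNIP3 in HT-29. Depth limits BNIP3 in HT-29, where a control library held as few as 35 reads.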
